A study of Mus musculus with 32 samples.

Results

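Skeletal muscle and motor nuclei of the brainstem were compared in pigmented C57BL/6 mice, with the libraries chosen by their labels alone. The comparison uses 16 of the 32 RNA-seq libraries of the series: 4 of extraocular muscle (EOM, which turns the eyeball) and 4 of tibialis anterior (TA, a limb muscle) make up the 8 muscle libraries, and 4 labelled oculomotor neuron (CN3) and 4 labelled abducens motor neuron (CN6) make up the 8 brainstem libraries. All of these mice are described as C57BL/6 with no allele or agent added, and neither their age nor their sex was given for the groups. The other 16 are from the albino B6(CG)Tyr(c-2J)/J and were not analysed here.

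Skeletal muscle fibres shorten when calcium released from the sarcoplasmic reticulum lets myosin pull on actin within sarcomeres, and they pay for this with creatine phosphate, glycogen and respiration. The oculomotor and abducens nuclei hold the motor neurons whose axons drive the extraocular muscles, set among interneurons, astrocytes and oligodendrocytes, which wrap central axons in myelin. Many proteins of energy use, calcium handling and the cytoskeleton come from small gene families in which vertebrates use one member in muscle and another in brain, as with the muscle and brain creatine kinases.

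Values are CPM, the gene's count scaled to a common library size after correction of the library total by edgeR's TMM factor, and every mean is given with its standard deviation (SD) over 4 libraries. Fold changes are log2, muscle over brainstem, with the average of EOM and TA set against the average of CN3 and CN6. The ± beside them is an approximate standard error, the absolute fold change over the square root of edgeR's quasi-likelihood F. The 95% intervals of the level genes rest on the same value. A gene was called at a Benjamini-Hochberg adjusted p under 0.05 over all genes tested. The labels do not state that the 4 libraries of a group came from separate animals, and a p then covers only how far these libraries scatter, which may be technical. Where a group had no read, a fold is given as a bound (at least so many times), taken from a floor of 3 counts over the libraries at 0. Such floors cover counting error only. In bulk tissue, fewer cells of a type and less RNA per cell cannot be told apart. Per the labels, RNA was extracted with a kit for fibrous or for lipid-rich tissue. If the kit followed the tissue, kit and tissue cannot be told apart either.

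The libraries were of the kind of tissue their labels say, with one limit for CN3. Ckm, the muscle creatine kinase (chromosome 7, 19404776 to 19422841, mm10), stood at 4622, 4364, 4114 and 4824 CPM in EOM and 21544, 20948, 21931 and 21164 CPM in TA, against 0.275, 0.577, 0.394 and 0.760 CPM in CN3 and 0.255, 0.278, 1.31 and 0.728 CPM in CN6. Every muscle library was far above every brainstem library. Snap25, a membrane fusion protein of nerve endings (chromosome 2, 136713453 to 136782428), gave the opposite picture, with 20.6, 13.5, 32.9 and 5.87 CPM in EOM and 0 CPM in all 4 TA libraries, against 1975, 2119, 2056 and 2256 CPM in CN3 and 2855, 2674, 3193 and 2996 CPM in CN6. Myh13, the myosin heavy chain of eye muscle, averaged 4592 ± 412 CPM in EOM and 51.0 ± 7.97 in TA, against 0.180 ± 0.0222 in CN3 and 0.267 ± 0.219 in CN6 (SD, n = 4 each), which sets EOM apart from TA.

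Motor neuron markers were clear in CN6 and close to absent in CN3. Chat, the enzyme that makes acetylcholine, was at 1.43, 1.06, 1.09 and 0.642 CPM in EOM and 0 CPM in all 4 TA libraries, against 0.549, 0.361, 0.166 and 0.268 CPM in CN3 and 12.03, 13.9, 7.62 and 16.5 CPM in CN6. CN3 thus lay below EOM for this gene, with no overlap between the groups. Slc18a3, the vesicular acetylcholine transporter, averaged 0.722 ± 0.372 CPM in EOM and 0 ± 0 in TA, against 0.0868 ± 0.0939 in CN3 and 9.66 ± 4.22 in CN6, and Phox2a had no read in any CN3 library. The difference between CN3 and CN6 was called for Chat, at a log2 value of −5.22 ± 0.35 (edgeR, adjusted p = 2.7e-07). The CN3 libraries are therefore brain tissue by Snap25, while their content of cholinergic motor neurons is not shown by these genes.

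Markers of peripheral nerve were read in both muscles, more so in EOM. Prx, periaxin of Schwann cell myelin, was at 81.7, 81.5, 69.3 and 72.6 CPM in EOM and 12.5, 15.3, 14.2 and 21.6 CPM in TA, against 0.424, 0.451, 0.290 and 0.626 CPM in CN3 and 0.662, 0.436, 0.755 and 0.445 CPM in CN6. Mbp, a myelin protein of both the central and the peripheral nervous system, averaged 247 ± 16.5 CPM in EOM and 33.7 ± 7.45 in TA, against 4551 ± 1103 in CN3 and 5490.5 ± 729 in CN6. Gad1, which makes the transmitter GABA and is a gene of central neurons, was at 9.87, 1.38, 20.7 and 0.459 CPM in EOM and 0 CPM in all 4 TA libraries, against 459, 540.3, 432 and 388 CPM in CN3 and 232, 288, 299 and 295 CPM in CN6. Across the EOM libraries Gad1 and Snap25 were both highest in replicate 3 and lowest in replicate 4. The part that nervous tissue within the EOM samples has in the EOM values of neuronal genes was not tested. Ttr, the transthyretin of choroid plexus, averaged 3.19 ± 1.27 CPM in CN3 and 66.8 ± 54.3 CPM in CN6.

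**Figure D1:**
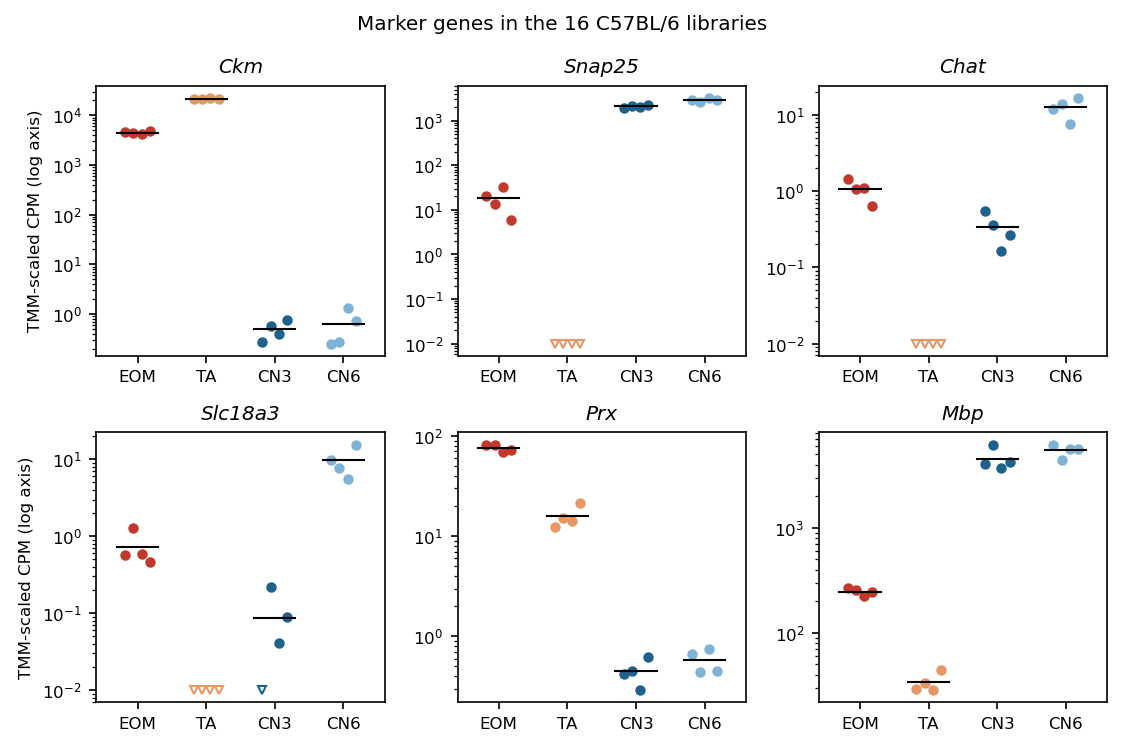
CPM (TMM-scaled, log axis) of 6 marker genes in each of the 16 C57BL/6 libraries, with EOM and TA left of CN3 and CN6; points are libraries, black lines are means, and open triangles stand for libraries with no read. Ckm separates muscle from brainstem in every library, Chat and Slc18a3 mark CN6 but not CN3, and Prx is higher in every EOM and TA library than in any library of the nuclei.

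Library totals ran from 18544334 to 27965207 counts in muscle and from 30694749 to 44254021 counts in brainstem. Between 15026 and 18507 genes had at least 1 read. The 10 most abundant genes took 9.13 to 9.59% of the counts in EOM and 19.8 to 20.8% in TA, against 3.83 to 4.35% in the nuclei. The TMM factors were 1.00 to 1.04 in EOM and 0.607 to 0.614 in TA, against 1.23 to 1.32 in the nuclei. Correlations of log2 CPM between libraries were 0.987 to 0.998 within groups and 0.566 to 0.649 between muscle and brainstem.

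Most of the transcriptome differed between muscle and brainstem. Of 16670 genes tested, 14804 (88.8%) were called, 6901 higher in muscle (41.4%) and 7903 lower (47.4%). The difference was at least 2-fold for 9787 of them and at least 16-fold for 2913. With calls this frequent, a call alone says little about a gene, so direction across tissues and size are used below. The median log2 fold change over all genes tested was −0.13.

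The split between higher and lower depends on the scaling. With library totals alone, the median of all genes moved by −0.69, to a value of −0.81, and genes called higher made up 30% of the calls in place of 46.6%. For this average contrast, the direction of a difference smaller than that shift therefore depends on the scaling. The TMM factors lie further apart between TA and the nuclei than between EOM and the nuclei. Single contrasts with TA therefore shift by more than those with EOM.

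The same direction for both muscles against both nuclei was held by 10822 genes, or 73.1% of those called. In all 4 muscle and nucleus contrasts 4905 genes were called higher in muscle (29.4% of genes tested) and 5917 lower (35.5%). The contrasts share libraries and are not independent of each other. All 8 muscle libraries lay above all 8 brainstem libraries for 4509 genes (27%), and below them for 5542 (33.2%). At a size of at least 16-fold in each of the 4 contrasts, 476 genes were higher in muscle (2.86%) and 1252 were lower (7.51%). Differences of this size were thus more numerous on the brainstem side, and held under all 4 scalings tried for 377 of the 476 and 1228 of the 1252.

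The genes at least 16-fold higher in muscle were few and abundant. They took 24.9 to 25.2% of all counts in EOM and 39.5 to 40.1% in TA, against 0.181 to 0.228% in the nuclei. The genes at least 16-fold lower took 0.203 to 0.380% of the counts in EOM and 0.0378 to 0.0429% in TA, against 16.7 to 17.9% in the nuclei. The highest share in EOM was that of replicate 3, and the lowest that of replicate 4. Of the 1252 lower genes, 183 (14.6%) had no read in any muscle library and 585 (46.7%) had none in any TA library. EOM averaged above TA for 1010 of them (80.7%). Of the 476 higher genes, 31 (6.51%) had no read in any brainstem library and 298 (62.6%) stayed under 1 CPM in all of them. Of the lower genes, 716 (57.2%) stayed under 1 CPM in every muscle library. The floor of 3 counts was 0.0198 CPM over the muscle libraries and 0.00805 CPM over the brainstem libraries. Shares with no read therefore do not compare evenly between the sides.

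The 12 most abundant of the higher genes with no overlap were proteins of contraction, calcium handling and energy supply in fibres. Atp2a1 pumps calcium back into the sarcoplasmic reticulum and averaged 22012 ± 2034 CPM in EOM and 52533 ± 2226 in TA, against 3.08 ± 2.06 in CN3 and 1.72 ± 1.15 in CN6. Myh4, the fastest myosin heavy chain of limb muscle, averaged 10937 ± 592 CPM in EOM and 57173 ± 5894 in TA, against 1.87 ± 0.731 in CN3 and 1.82 ± 1.15 in CN6. The other 10 were Acta1 and Tpm1 of the thin filament, Tnnt3, Tnnc2 and Tnni2 of fast troponin, the calcium buffer Pvalb, Ckm, the myosin light chains Myl1 and Mylpf, and titin (Ttn). For Tnnc2, 74% of the exon length overlaps Ube2c on the opposite strand, and for Atp2a1 21.9% overlaps Rabep2. Reads of such partners may be counted together, since a strand setting is not given in the sources used here.

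The most abundant of the lower genes came from myelin, neurons and astrocytes. Mbp, described above, is among them. The long RNA Meg3 averaged 39.5 ± 24.5 CPM in EOM and 9.40 ± 2.14 in TA, against 5730.0 ± 606 in CN3 and 3812 ± 194 in CN6. Others were the long RNA Snhg11, Snap25 of vesicle fusion, the axonal motors Kif5a and Kif1a, the microtubule protein Map1a, and Aldoc and Slc1a2, which are abundant in astrocytes.

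**Figure D2:**
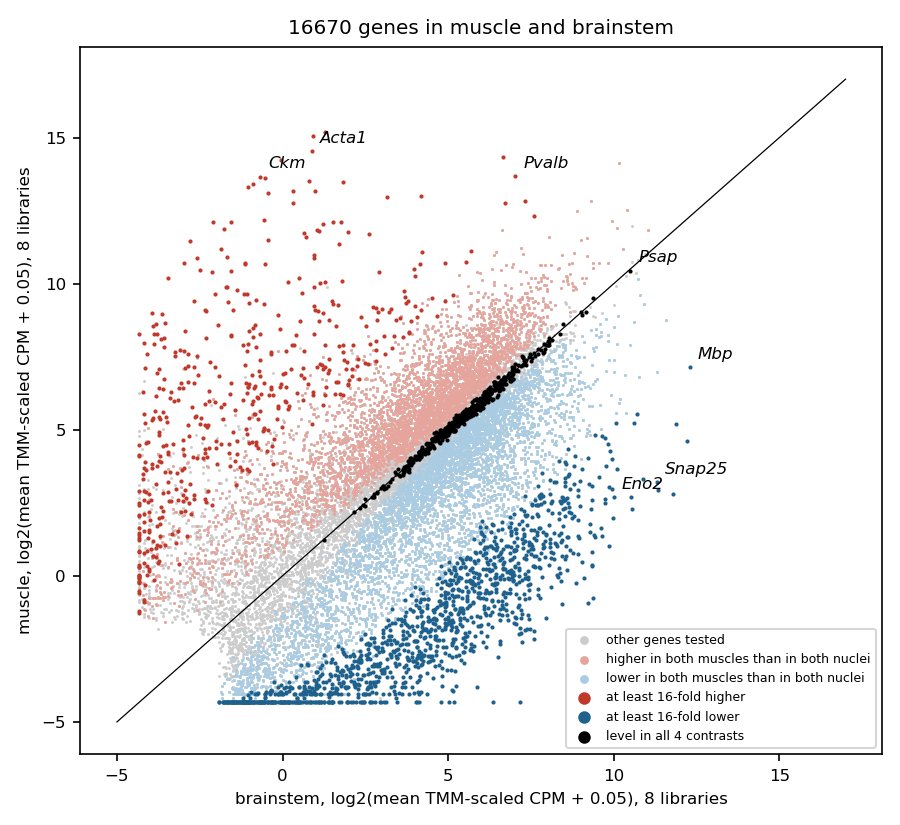
Mean expression of 16670 genes in the 8 muscle libraries (vertical) and the 8 brainstem libraries (horizontal), as log2(mean TMM-scaled CPM + 0.05); the line marks equal values. The 476 genes at least 16-fold higher in both muscles reach the highest levels of the plot, while the 1252 at least 16-fold lower are more numerous and many end at the lowest muscle value, where no read was counted.

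Sarcomere genes rose without exception. All 25 of the list were called higher in all 4 contrasts (adjusted p at most 3.4e-11, background 29.4%), each by at least 16-fold, with a median log2 fold change of 12.36 against −0.13 over all genes. Acta1, the actin of skeletal muscle, was at 7372, 7304, 6314 and 7378 CPM in EOM and 40790.1, 40605, 39112 and 39643 CPM in TA, against 1.87, 2.36, 1.37 and 2.28 CPM in CN3 and 0.764, 1.49, 2.73 and 1.497 CPM in CN6. TA exceeded EOM in every library, and both exceeded the nuclei. The largest value was that of Myoz1, which links alpha-actinin to calcineurin at the Z-disc, at 14.40 ± 0.14. The smallest was that of Ldb3, another Z-disc protein, at 6.82 ± 0.07. Summed over the list, expression was 90944 to 97198 CPM in EOM and 342868 to 355835 CPM in TA, against 151 to 169 CPM in CN3 and 161 to 188 CPM in CN6.

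The muscles did not share all sarcomere genes in equal measure. Myom2, an M-band protein, averaged 6.56 ± 1.74 CPM in EOM and 2682 ± 108 in TA, against 0.0826 ± 0.0332 in CN3 and 0.273 ± 0.218 in CN6, which placed EOM above both nuclei but TA far above EOM (EOM over TA −8.67 ± 0.21, adjusted p = 3.2e-15 by edgeR). Actn3, the alpha-actinin of the fastest fibres, averaged 845 ± 92.3 CPM in EOM and 17755 ± 1181 in TA, against 1.83 ± 0.349 in CN3 and 2.00 ± 0.290 in CN6. Myh2, a myosin of fast oxidative fibres, was the other way round, with 2262 ± 174 CPM in EOM and 1062 ± 307 CPM in TA. All of these genes were called between EOM and TA.

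Excitation-contraction coupling rose as a whole, with 20 of 20 genes higher in all 4 contrasts (adjusted p at most 4.3e-12) and a median of 8.27. Ryr1, the calcium release channel, was at 2256, 2298, 1878 and 2289.6 CPM in EOM and 6399, 6120.4, 6762 and 7252 CPM in TA, against 3.94, 2.44, 4.93 and 5.21 CPM in CN3 and 2.52, 3.45, 2.62 and 1.52 CPM in CN6. Cacna1s, the voltage sensor that opens it, averaged 1107 ± 99.2 CPM in EOM and 2162 ± 118 in TA, against 0.527 ± 0.0941 in CN3 and 0.292 ± 0.0944 in CN6. Triadin (Trdn) at 13.85 ± 0.19 and the calcium store protein Casq1 at 10.61 ± 0.15 sit beside that channel. Scn4a, the sodium channel of the fibre membrane, changed by 12.42 ± 0.12. The smallest difference was that of the channel subunit Cacnb1, at 2.26 ± 0.06.

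Sarcolipin (Sln), an inhibitor of the calcium pump, marked EOM within this list. It averaged 192 ± 15.9 CPM in EOM and 2.41 ± 0.135 in TA, against 0.0741 ± 0.0613 in CN3 and 0.0649 ± 0.0229 in CN6, so that TA lay above the nuclei by little in CPM though by a called margin. Cacng1, a subunit of the voltage sensor, was the reverse, with 11.5 ± 1.62 CPM in EOM and 359.9 ± 10.9 CPM in TA.

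Glycogen and glycolysis genes were higher for 17 of 18 genes (adjusted p at most 1.1e-04), with a median of 4.71. Pygm, which breaks glycogen down in muscle, was at 2455, 2357, 2083 and 2429 CPM in EOM and 11842, 11419, 12220.1 and 11326 CPM in TA, against 75.0, 102, 95.1 and 80.3 CPM in CN3 and 128, 111, 124 and 124 CPM in CN6. Ampd1, the muscle AMP deaminase, changed by 13.96 ± 0.19, and Ppp1r3a, which ties a phosphatase to glycogen, by 12.23 ± 0.27. Pkm, the pyruvate kinase that both tissues use, was the exception, averaging 1850.1 ± 156 CPM in EOM and 6123 ± 338 in TA, against 1324 ± 60.9 in CN3 and 1673 ± 127 in CN6. It was called in the average contrast at 1.18 ± 0.05 but not in all 4. Gapdh averaged 60.2 ± 57.2 CPM in EOM and 105 ± 8.16 in TA, against 10.3 ± 0.774 in CN3 and 9.26 ± 3.33 in CN6, and is uncertain because many near-identical copies of it lie in the mouse genome.

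Nuclear genes of the respiratory chain rose evenly. All 25 were higher in all 4 contrasts (adjusted p at most 4.9e-10), yet none reached 16-fold, and the values ran from 1.36 for Cox4i1 to 2.95 for Uqcrfs1, with a median of 2.35. Atp5b, a catalytic subunit of ATP synthase, was at 5186, 5058, 4588 and 5277 CPM in EOM and 6978, 6676, 6435 and 6422 CPM in TA, against 1151, 1288, 1246 and 1214 CPM in CN3 and 1481, 1441, 1507 and 1473 CPM in CN6. The order TA, EOM, nuclei held for this gene with no overlap. The sum over the list was 22352 to 25571 CPM in EOM and 32022 to 34716 CPM in TA, against 5277 to 5869.5 CPM in CN3 and 6326 to 6723 CPM in CN6.

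Fatty acid genes were higher for 17 of 18 genes (adjusted p at most 5.4e-06), with a median of 3.503. Cd36, a fatty acid carrier of the membrane, averaged 970.2 ± 72.2 CPM in EOM and 659 ± 24.8 in TA, against 0.720 ± 0.289 in CN3 and 2.16 ± 0.844 in CN6. Lpl, the lipase that frees fatty acids from lipoproteins, changed by 8.50 ± 0.19, and Fabp4, the carrier of fat cells and capillaries, by 12.01 ± 0.19. Cpt1a, the liver form of the carnitine transferase, averaged 33.7 ± 2.37 CPM in EOM and 12.4 ± 0.535 in TA, against 37.6 ± 3.89 in CN3 and 57.5 ± 3.30 in CN6, and was called lower in the average contrast at −1.19 ± 0.06, though not in all 4. It was called lower in all 4 under RLE factors, no filter, DESeq2 and library totals, and without EOM replicate 2, CN3 replicate 1 or CN3 replicate 3. For Cpt1b, its muscle form, the low mean of 1.79 ± 0.656 CPM in EOM and 1.10 ± 0.375 CPM in TA stands beside an 81.4% exon overlap with Gm44502 on the same strand.

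The muscle side of the neuromuscular junction was mixed: 9 of 14 genes were higher, 1 was lower and 4 were neither (adjusted p at most 0.0021, median 3.79, or 3.67 with genes at 0 set at the floor). Backgrounds were 29.4% higher and 35.5% lower. The acetylcholine receptor subunits led. Chrna1 averaged 211 ± 18.3 CPM in EOM and 28.8 ± 0.821 in TA, against 0.903 ± 0.227 in CN3 and 1.00 ± 0.113 in CN6, and Chrne, the adult subunit, 64.7 ± 5.49 CPM in EOM and 22.1 ± 1.66 in TA, against 0.0916 ± 0.0650 in CN3 and 0.130 ± 0.0903 in CN6. Chrnd had no read in any brainstem library and averaged 38.5 ± 4.18 CPM in EOM and 6.25 ± 1.00 CPM in TA, which makes muscle at least 2776-fold higher. Chrng, the fetal subunit, was also at 0 in the brainstem and averaged 1.70 ± 0.434 CPM in EOM and 0.0932 ± 0.0625 CPM in TA. For these subunits EOM exceeded TA.

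Ache, the enzyme that breaks down acetylcholine, was lower in muscle at −1.07 ± 0.05, averaging 111 ± 9.15 CPM in EOM and 60.0 ± 4.41 in TA, against 149 ± 6.91 in CN3 and 197 ± 14.3 in CN6. Etv5, a transcription factor of the junction, averaged 70.3 ± 4.95 CPM in EOM and 28.1 ± 1.30 in TA, against 34.3 ± 3.71 in CN3 and 36.8 ± 3.51 in CN6, and lay above both nuclei in EOM and below both in TA. Lrp4, Utrn and Colq were the others without a shared direction. For Lrp4, Utrn and Etv5 the average direction was reversed under library totals. Colq, the collagen tail of the esterase, averaged 52.2 ± 2.46 CPM in EOM and 14.1 ± 1.21 in TA, against 1.31 ± 0.445 in CN3 and 12.98 ± 1.15 in CN6, so that TA overlapped CN6.

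Of 16 myogenic and muscle transcription factors 13 were higher (adjusted p at most 1.2e-05, median 4.52). Myf6, the most abundant myogenic factor of adult fibres, was at 119, 119, 109 and 127 CPM in EOM and 142, 156, 179 and 149.6 CPM in TA, against 0 CPM in all 4 CN3 libraries and 0.0510, 0, 0 and 0 CPM in CN6. That is at least 8642-fold over CN3. Mef2c changed by 6.20 ± 0.17. Myog averaged 20.1 ± 0.986 CPM in EOM and 3.58 ± 1.504 in TA, against 0.0499 ± 0.0998 in CN3 and 0.0389 ± 0.0450 in CN6. The exceptions were Pax7, Pax3 and Lbx1. Pax7, the factor of satellite cells, averaged 4.19 ± 0.585 CPM in EOM and 2.55 ± 0.644 in TA, against 12.2 ± 9.04 in CN3 and 0.180 ± 0.177 in CN6.

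The dystrophin complex, which ties the fibre's cytoskeleton to its surroundings, was higher for 13 of 13 genes (adjusted p at most 1.2e-07, median 2.84). Cav3 changed by 11.54 ± 0.18 and Sgca by 8.87 ± 0.08. Dmd itself changed by 2.48 ± 0.07, and Dtna, which brain uses as well, by 0.79 ± 0.04. The muscle ubiquitin ligases and growth restraints were higher for 12 of 12 (adjusted p at most 1.8e-11, median 8.88). Trim63, which marks sarcomere proteins for breakdown, averaged 103 ± 16.7 CPM in EOM and 455 ± 95.6 in TA, against 0.0582 ± 0.0725 in CN3 and 0.247 ± 0.121 in CN6. Mstn, the secreted growth inhibitor myostatin, averaged 66.0 ± 5.88 CPM in EOM and 102 ± 18.3 in TA, against 0.0333 ± 0.0513 in CN3 and 0.0313 ± 0.0391 in CN6. Trim55 had no read in CN3 and was at least 6709-fold higher in muscle than that floor.

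On the brainstem side, synaptic vesicle release was lower in muscle for 22 of 22 genes (adjusted p at most 2.2e-06, background 35.5%), with a median log2 fold change of −7.11. Syt1, the calcium sensor of release, was at 14.97, 5.26, 26.9 and 3.07 CPM in EOM and 0 CPM in all 4 TA libraries, against 685, 447, 481 and 423 CPM in CN3 and 234, 304, 276 and 243 CPM in CN6. TA had no read, and each EOM library lay below each brainstem library. Cplx1, which clamps the fusion machinery, was at 0 in all 4 TA libraries and averaged 7.80 ± 4.97 CPM in EOM, against 775 ± 107 in CN3 and 1259 ± 110.4 in CN6. Against the brainstem mean, TA was at least 52310-fold lower for Snap25, 21150-fold for Cplx1, 8042-fold for Syt1 and 5786-fold for the synuclein Sncb. The smallest difference was that of Vamp2, at −2.42 ± 0.06, which muscle also uses for membrane traffic. Vamp1 stood out by its order within muscle, with 28.2 ± 1.10 CPM in EOM and 67.2 ± 7.09 CPM in TA. The sum over the list was 320.2 to 495 CPM in EOM and 246 to 272 CPM in TA, against 11412 to 12076 CPM in CN3 and 12134 to 13582 CPM in CN6.

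Postsynaptic genes were lower for 17 of 20 (adjusted p at most 0.022, median −5.29, or −4.36 at the floor). Grin1, the shared subunit of NMDA receptors, was at 0 in all TA libraries and averaged 1.08 ± 0.698 CPM in EOM, against 158 ± 17.4 in CN3 and 123 ± 14.7 in CN6. Gria1, an AMPA receptor subunit, changed by −9.66 ± 0.36, Shank1 by −7.39 ± 0.15 and Dlg4 by −4.88 ± 0.09. Homer1, a scaffold that also binds calcium release channels, went the other way at 2.78 ± 0.08, averaging 70.6 ± 7.23 CPM in EOM and 172 ± 13.9 in TA, against 15.5 ± 2.69 in CN3 and 16.5 ± 1.11 in CN6. Camk2a, a kinase best known from synapses, was at 143, 149, 122 and 129 CPM in EOM and 989.8, 1045, 979 and 1002 CPM in TA, against 278, 192, 266 and 220.0 CPM in CN3 and 69.0, 75.4, 52.5 and 51.6 CPM in CN6. TA held the most of it and CN6 the least, so that it had no shared direction. Camk2b had none either.

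Neuronal cytoskeleton and axon genes were lower for 19 of 20 (adjusted p at most 2.0e-07, median −6.36). Nefl, the light neurofilament, was at 4.37, 3.45, 3.43 and 2.34 CPM in EOM and 0.131, 0.125, 0 and 0 CPM in TA, against 344, 467, 359.9 and 380.2 CPM in CN3 and 958, 767, 889 and 1072 CPM in CN6. CN6 held more of it than CN3 in every library, and the CN3 minus CN6 difference of −1.25 ± 0.13 was called (edgeR, adjusted p = 5.0e-06). Ina, an internexin, was at 0 in TA and at least 3654-fold lower there than in the brainstem. Tau (Mapt) fell by less, at −3.09 ± 0.04, and averaged 44.6 ± 1.70 CPM in EOM and 88.8 ± 5.73 CPM in TA. Prph, the intermediate filament of motor and peripheral neurons, was the exception, averaging 2.73 ± 0.969 CPM in EOM and 0.547 ± 0.287 in TA, against 2.19 ± 0.530 in CN3 and 16.6 ± 4.50 in CN6. CN3 was not above EOM for this gene.

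Neuronal ion channels were lower for 17 of 20 (adjusted p at most 6.5e-07, median −5.70). 1 was higher and 2 had no shared direction. Scn8a and Scn1a, sodium channels of central axons and cell bodies, changed by −10.11 ± 0.26 and −10.19 ± 0.23. Kcnc1, a fast potassium channel, was among those with no shared direction.

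By transmitter, GABA and glycine genes were lower for 11 of 12 (adjusted p at most 0.0042, median −9.01, or −8.52 at the floor). Slc6a5, the glycine transporter of glycinergic terminals, separated the nuclei, at 0, 0.106, 0 and 0 CPM in EOM and 0.0656, 0, 0 and 0 CPM in TA, against 0.599, 4.49, 0.249 and 0.604 CPM in CN3 and 118, 94.4, 124 and 121 CPM in CN6. Glra1, a glycine receptor subunit, had no read in muscle, which makes it at least 1398-fold lower than in the brainstem. Gphn, the scaffold of inhibitory synapses, had no shared direction, at 48.1 ± 2.62 CPM in EOM and 89.7 ± 4.12 in TA, against 79.8 ± 4.67 in CN3 and 74.9 ± 2.92 in CN6.

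Of 8 glutamatergic genes tested 5 were lower (background 35.5%, median −5.32, or −4.43 at the floor), and 1 further member, Tbr1, did not pass the filter. Slc17a6, the vesicular transporter of most brainstem glutamate neurons, was at 0 in TA and averaged 1.84 ± 1.87 CPM in EOM, against 356 ± 28.4 in CN3 and 277 ± 14.1 in CN6. Slc17a7, the transporter of cortical neurons, was uneven in CN3, at 41.4, 3.75, 2.69 and 2.71 CPM, and had no shared direction.

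Among the neuronal lists, that of cholinergic motor neurons had the largest share of genes without a shared direction. Only 4 of 12 genes tested were lower in all 4 contrasts (Calca, Calcb, Ret and Lhx4, adjusted p at most 0.026), which is close to the background of 35.5%, and 8 were neither. Isl2 and Mnx1 did not pass the filter. Slc5a7, the choline transporter, averaged 4.00 ± 0.685 CPM in EOM and 0 ± 0 in TA, against 1.84 ± 0.853 in CN3 and 43.5 ± 15.7 in CN6, so that EOM lay above CN3 and below CN6. Ret, the receptor of a neurotrophic factor, averaged 8.47 ± 1.35 CPM in EOM and 4.30 ± 0.783 in TA, against 50.9 ± 16.7 in CN3 and 102 ± 8.62 in CN6.

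Monoamine genes differed between the nuclei as well. Of 11 tested 5 were lower in muscle, beside a background of 35.5%, and 1, Maob, was higher at 0.92 ± 0.09, a call that was absent under RLE factors, DESeq2 and library totals. Slc6a3, the dopamine transporter, had no read in muscle and was at 80.2, 36.2, 22.2 and 1.74 CPM in CN3 and 0.255, 0.436, 0.444 and 0.162 CPM in CN6. The CN3 libraries spread over more than an order of magnitude for this gene. Dbh, which makes noradrenaline, averaged 1.34 ± 0.346 CPM in EOM and 0.0328 ± 0.0656 in TA, against 0.354 ± 0.167 in CN3 and 9.55 ± 6.84 in CN6. Th, which starts the synthesis of both, averaged 9.69 ± 1.20 CPM in EOM and 0.130 ± 0.108 in TA, against 16.6 ± 13.9 in CN3 and 5.60 ± 2.05 in CN6.

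Oligodendrocyte genes were lower for 15 of 15 (adjusted p at most 5.3e-10, median −8.92, or −8.16 at the floor). Mog, a surface protein of central myelin, was at 0.245, 0.212, 0.251 and 0.321 CPM in EOM and 0, 0.125, 0 and 0.116 CPM in TA, against 133, 205, 103 and 138 CPM in CN3 and 171, 147, 149 and 149 CPM in CN6. Mobp was at 0 in TA and at least 12380-fold lower there. Opalin had no read in muscle and was at least 1828-fold lower. The genes that peripheral myelin or its cells also use fell by less, with Cnp at −4.28 ± 0.10, Ugt8a at −4.80 ± 0.13 and Sox10 at −3.37 ± 0.12.

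Astrocyte genes were lower for 12 of 12 (adjusted p at most 0.015, median −4.50), with a wide range. Slc1a2, the main glutamate carrier, changed by −10.15 ± 0.37, and Gfap, the astrocyte filament, by −8.47 ± 0.39. Aqp4, a water channel that fast muscle fibres carry too, changed by only −1.24 ± 0.08 and was at 71.8, 79.8, 81.6 and 81.7 CPM in EOM and 111, 105, 89.4 and 77.9 CPM in TA, against 169, 155, 139 and 186 CPM in CN3 and 230.1, 311, 253 and 244 CPM in CN6. Glul, glutamine synthetase, averaged 1259.6 ± 95.6 CPM in EOM and 1007 ± 274 in TA, against 1734 ± 203 in CN3 and 1657 ± 83.8 in CN6, and changed by −0.59 ± 0.10.

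Neuronal RNA-binding proteins were lower for 14 of 17 (adjusted p at most 0.0028, median −5.28). Elavl3 was at 0 in TA and at least 4202-fold lower there. Rbfox3, known as the neuronal antigen NeuN, averaged 0.975 ± 0.480 CPM in EOM and 0.0619 ± 0.0718 in TA, against 88.6 ± 9.89 in CN3 and 72.3 ± 9.96 in CN6. Rbfox1, a splicing factor of both tissues, was higher in muscle at 0.93 ± 0.05, a call that was absent under library totals. Neuronal transcription factors were lower for 12 of 20 (adjusted p at most 0.049, background 35.5%, median −4.72, or −3.93 at the floor). Pou3f3, at 0.197 ± 0.154 CPM in EOM and 0 in TA, averaged 39.7 ± 2.39 CPM in CN3 and 35.1 ± 2.41 CPM in CN6. Otx2, a factor of forebrain and midbrain, averaged 0.657 ± 0.693 CPM in EOM and 0 ± 0 in TA, against 13.7 ± 5.52 in CN3 and 0.680 ± 0.336 in CN6, and so had no shared direction.

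Ependyma and choroid plexus genes were lower for 5 of 8 and higher for 1, Rarres2 at 2.13 ± 0.20 (adjusted p at most 0.028, median −3.76, or −2.86 at the floor). Backgrounds were 35.5% lower and 29.4% higher. The lower count dropped to 3 without EOM replicate 4 or without CN3 replicate 1, and to 2 with limma voom. Rarres2 was not called in all 4 contrasts under library totals.

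**Figure D3:**
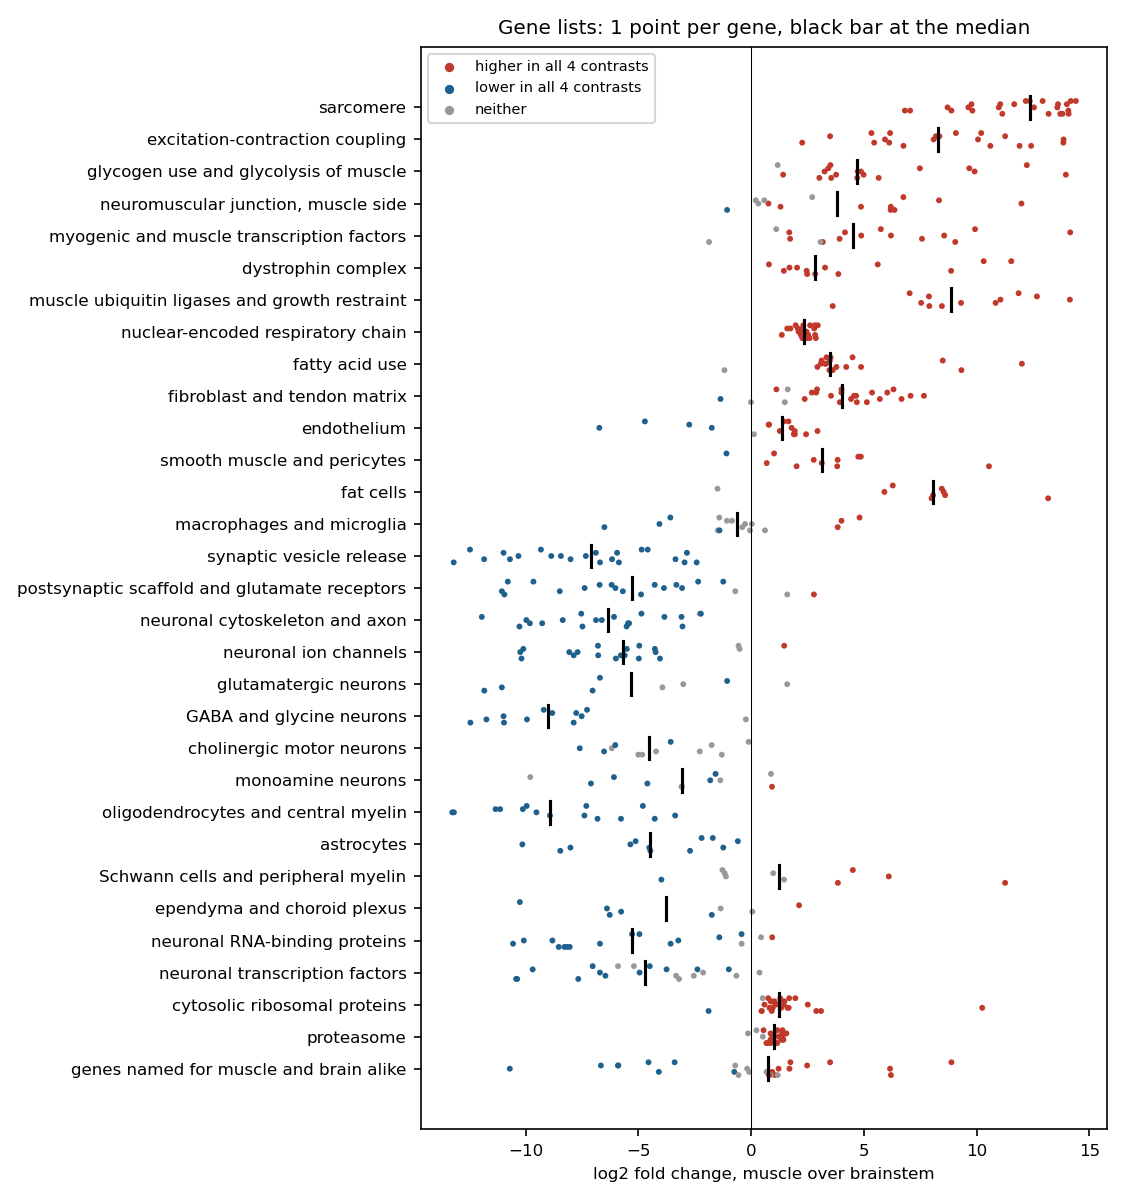
Log2 fold change of muscle over brainstem for every tested gene of 31 lists, 1 point per gene, with a black bar at each list's median. Lists of the fibre (top) lie right of 0 and lists of neurons and central glia (middle) lie left of it; macrophage genes and genes known from both tissues spread over both sides. Points of genes with a group at 0 show the fitted value.

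Isoform pairs made the exchange visible gene by gene. Each of 49 pairs sets a muscle isoform beside a counterpart, called the brain isoform here. In some pairs the counterpart is not specific to brain, as with Rpl3, Actb and Myh10. Of the 49 pairs, 40 switched: the muscle isoform was higher and the brain isoform lower in all 4 contrasts. The muscle isoform was higher in 48 pairs and the brain isoform lower in 41. By the background shares, 29.4% of genes are held higher and 35.5% are held lower. The pairs were picked from knowledge of these families and with earlier results of these data known. Their count therefore says nothing of families in general. In all 49 pairs the log2 ratio of the isoforms' counts, each plus 1, was higher in each muscle library than in each brainstem library. The difference of the mean ratios ran from 1.26 to 23.2, with a median of 11.5. Counts per exon length give each isoform's share, and in 25 pairs the muscle isoform held over 90% in muscle and under 10% in the brainstem.

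Promoter sequences are shown for the muscle and brain isoforms of creatine kinase, enolase and phosphoglycerate mutase, because these families switch and lie on the path from creatine phosphate and glucose to ATP. Each runs 5′ to 3′ from 250 bases before to 50 bases after the transcript start in RefSeq (GRCm38.p6, which is mm10). Capitals mark E-boxes (CANNTG, the core bound by myogenic factors), MEF2 sites and the TATA box (TATAAA), searched on both strands.
Ckm (chr7:19410844-19411143, plus strand): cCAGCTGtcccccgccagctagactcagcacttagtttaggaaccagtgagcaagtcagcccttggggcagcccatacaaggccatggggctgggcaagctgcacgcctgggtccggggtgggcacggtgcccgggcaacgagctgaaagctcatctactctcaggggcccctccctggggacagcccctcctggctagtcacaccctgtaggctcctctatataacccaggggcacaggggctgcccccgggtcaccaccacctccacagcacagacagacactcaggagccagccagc
Ckb (chr12:111672289-111672588, minus strand): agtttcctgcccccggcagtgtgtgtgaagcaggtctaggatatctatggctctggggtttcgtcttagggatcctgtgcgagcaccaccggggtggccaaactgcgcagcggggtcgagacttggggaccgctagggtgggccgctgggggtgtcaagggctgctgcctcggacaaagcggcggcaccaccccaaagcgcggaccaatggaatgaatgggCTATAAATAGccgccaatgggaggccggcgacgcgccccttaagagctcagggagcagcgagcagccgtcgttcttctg
Eno3 (chr11:70656926-70657225, plus strand): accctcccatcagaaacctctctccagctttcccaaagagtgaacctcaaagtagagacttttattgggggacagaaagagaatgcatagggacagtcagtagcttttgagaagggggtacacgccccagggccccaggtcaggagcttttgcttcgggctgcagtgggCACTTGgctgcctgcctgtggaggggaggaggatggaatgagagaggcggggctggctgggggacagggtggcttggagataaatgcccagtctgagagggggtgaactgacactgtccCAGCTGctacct
Eno2 (chr6:124769624-124769923, minus strand): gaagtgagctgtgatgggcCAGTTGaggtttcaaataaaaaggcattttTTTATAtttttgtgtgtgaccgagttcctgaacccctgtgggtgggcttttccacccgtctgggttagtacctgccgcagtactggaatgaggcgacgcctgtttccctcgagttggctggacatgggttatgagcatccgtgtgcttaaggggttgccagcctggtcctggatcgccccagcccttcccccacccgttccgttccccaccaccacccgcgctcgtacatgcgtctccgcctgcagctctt
Pgam2 (chr11:5803747-5804046, minus strand): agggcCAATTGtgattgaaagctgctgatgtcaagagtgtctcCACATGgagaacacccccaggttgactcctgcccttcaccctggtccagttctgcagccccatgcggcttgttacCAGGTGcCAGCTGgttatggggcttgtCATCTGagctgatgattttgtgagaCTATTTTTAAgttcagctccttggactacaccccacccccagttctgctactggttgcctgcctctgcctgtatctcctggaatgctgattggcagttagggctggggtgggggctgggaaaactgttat
Pgam1 (chr19:41911621-41911920, plus strand): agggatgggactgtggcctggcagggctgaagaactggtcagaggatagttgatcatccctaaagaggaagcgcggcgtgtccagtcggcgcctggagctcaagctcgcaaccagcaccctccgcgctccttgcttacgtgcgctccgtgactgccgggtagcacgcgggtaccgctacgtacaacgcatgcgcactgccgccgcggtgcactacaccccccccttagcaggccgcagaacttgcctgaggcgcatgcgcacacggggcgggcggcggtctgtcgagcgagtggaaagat
The Pgam2 window holds 5 E-boxes and 1 MEF2 site, and the Pgam1 window holds none of the motifs. The Ckm window holds 1 E-box, CAGCTG, that starts 249 bases before the transcript start, and Eno3 holds 2. Eno2 holds 1 E-box and 1 TATA box on the reverse strand. Ckb holds no E-box but 1 MEF2 site, CTATAAATAG, which overlaps its TATA box. Among 15761 promoters of 12450 tested genes, 66.0% hold an E-box, 16.5% the form CAGCTG, 1.89% a MEF2 site and 8.10% a TATA box, so an E-box in a window is common. Promoters could be matched for 337 of the 476 genes at least 16-fold higher and 891 of the 1252 at least 16-fold lower. Both are under 80%, which voids a comparison of motif shares between these sets. A match in a window is a description of its letters.

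Cytosolic creatine kinase, which buffers ATP, changed hands almost completely. Ckm was given above, and Ckb (chromosome 12, 111669361 to 111672338) was at 58.3, 25.9, 50.8 and 24.1 CPM in EOM and 6.83, 5.82, 5.14 and 5.30 CPM in TA, against 721, 784, 839.9 and 749 CPM in CN3 and 1160.5, 894, 1058 and 1104 CPM in CN6. By length, Ckm made up 99.1% in EOM and 99.973% in TA, against 0.0644% in CN3 and 0.0606% in CN6 of the pair's transcripts. The log2 ratio of Ckm to Ckb counts was 6.31 to 12.04 in the 8 muscle libraries, against −12.02 to −9.63 in the 8 brainstem libraries. The mitochondrial pair had the largest difference of all: Ckmt1 had no read in TA, averaged 11.8 ± 1.99 CPM in EOM, and reached 313 ± 18.2 CPM in CN3 and 403 ± 20.2 CPM in CN6. Ckmt2 averaged 5369.9 ± 192 CPM in EOM and 3371 ± 302 in TA, against 0.158 ± 0.117 in CN3 and 0.208 ± 0.0789 in CN6.

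In glycolysis, the enolases gave the same picture. Eno3 (chromosome 11, 70657202 to 70662513) was at 4969, 4569, 4052 and 4738 CPM in EOM and 12183, 11392, 11710.0 and 10723 CPM in TA, against 7.96, 8.64, 11.1 and 11.97 CPM in CN3 and 7.95, 8.19, 8.44 and 7.22 CPM in CN6. Eno2, the neuronal enolase (chromosome 6, 124760053 to 124769673), was at 14.8, 9.34, 19.1 and 5.46 CPM in EOM and 0.525, 0.626, 0.856 and 1.05 CPM in TA, against 929, 999, 1091 and 1013 CPM in CN3 and 1075, 938, 1075 and 1036 CPM in CN6. The groups did not overlap for either gene, and Eno3 made up 99.9% in EOM and 99.998% in TA, against 2.59% in CN3 and 2.04% in CN6. For phosphoglycerate mutase, Pgam2 averaged 1065 ± 82.1 CPM in EOM and 3004 ± 250.3 in TA, against 1.74 ± 0.172 in CN3 and 2.00 ± 0.584 in CN6, while Pgam1 averaged 24.0 ± 0.721 CPM in EOM and 8.14 ± 1.49 in TA, against 144 ± 5.11 in CN3 and 151 ± 7.52 in CN6. Pgam2 made up 99.1% in EOM and 99.9% in TA, against 2.78% in CN3 and 3.02% in CN6 of that pair.

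Some pairs switched in direction while the muscle isoform kept a large part of the brainstem transcripts. Pfkm, the muscle phosphofructokinase, rose at 3.42 ± 0.05 and Pfkp fell at −4.21 ± 0.09, yet Pfkm made up 99.7% in EOM and 99.981% in TA, against 88.2% in CN3 and 87.6% in CN6. Aldoa made up 99.8% in EOM and 99.999% in TA, against 51.0% in CN3 and 41.5% in CN6 of its pair with Aldoc. The adenine nucleotide carrier Slc25a4 made up 96.6% in EOM and 99.0% in TA, against 64.6% in CN3 and 63.5% in CN6 of its pair with Slc25a5. Phka1, a subunit of the kinase that activates glycogen breakdown, made up 93.8% in EOM and 99.5% in TA, against 64.0% in CN3 and 72.0% in CN6 of its pair. Over the 8 libraries of each kind, the muscle isoform was the majority in both muscle and brainstem in 5 of the 49 pairs (Pfkm, Phka1, Slc25a4, Fabp3 and Ank1), and in muscle alone in 44. Taken by tissue, it was the minority in EOM for Ldha (39.8%), Tuba8 (43.4%) and Mbnl1 (33.3%). In CN3 it was the majority for Aldoa (51.0%) and just short of it for Ank1 (49.6%).

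Glucose handling followed. Slc2a4, the insulin-regulated glucose carrier, was at 697, 654, 593 and 682 CPM in EOM and 1255, 1262, 1215 and 1175 CPM in TA, against 1.90, 2.76, 2.26 and 2.48 CPM in CN3 and 1.91, 1.76, 1.20 and 0.890 CPM in CN6. Slc2a3, the neuronal carrier, averaged 8.33 ± 0.592 CPM in EOM and 30.3 ± 7.96 in TA, against 113 ± 6.29 in CN3 and 119 ± 6.77 in CN6. Hk2 made up 92.3% in EOM and 98.8% in TA, against 1.21% in CN3 and 1.41% in CN6 of the hexokinase pair with Hk1. In the respiratory chain, Cox6a2 averaged 748 ± 104 CPM in EOM and 1014 ± 63.7 in TA, against 0.547 ± 0.544 in CN3 and 0.126 ± 0.0518 in CN6, and Cox6a1 46.3 ± 2.31 CPM in EOM and 22.4 ± 1.69 in TA, against 121 ± 6.20 in CN3 and 136 ± 11.9 in CN6. Cox8b, another muscle form of a cytochrome oxidase subunit, made up 90.4% in EOM and 97.4% in TA, against 0.130% in CN3 and 0.590% in CN6 of its pair with Cox8a. The pair of Cox7a1 and Cox7a2 did not switch, since Cox7a2 was higher in muscle too, and Cox7a1 made up 57.8% in EOM and 72.0% in TA, against 2.84% in CN3 and 3.65% in CN6.

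The calcium handling pairs examined, of voltage sensors, release channels, junctophilins and pumps, switched. Ryr2 averaged 3.92 ± 1.42 CPM in EOM and 0.379 ± 0.187 in TA, against 167 ± 12.9 in CN3 and 143 ± 7.36 in CN6, and Ryr1 made up 99.9% in EOM and 99.996% in TA, against 3.17% in CN3 and 2.28% in CN6. Atp2a2, the pump of slow fibres and of neurons, averaged 443 ± 26.5 CPM in EOM and 78.6 ± 3.70 in TA, against 797 ± 106 in CN3 and 1002 ± 54.3 in CN6, and EOM held more of it than TA. Jph3, which joins membranes in neurons, was at 0 in TA and averaged 0.911 ± 0.659 CPM in EOM, against 109.9 ± 14.3 in CN3 and 86.9 ± 13.6 in CN6. Its muscle counterpart Jph2 averaged 307 ± 24.7 CPM in EOM and 1838 ± 50.7 in TA, against 3.07 ± 0.363 in CN3 and 1.73 ± 0.109 in CN6. The voltage sensors Cacna1s and Cacna1a differed by 15.97 in mean log2 ratio, and the sodium channels Scn4a and Scn1a by 22.40.

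Some receptors and structural proteins switched as well. Chrna1 made up 95.2% in EOM and 96.9% in TA, against 0.843% in CN3 and 1.35% in CN6 of its pair with Chrna4, a nicotinic subunit of neurons. Acta1 made up 97.5% in EOM and 99.6% in TA, against 0.624% in CN3 and 0.549% in CN6 of the pair with the cytoplasmic actin Actb. Myh4 and the non-muscle myosin Myh10 differed by 16.68 in mean log2 ratio. The globins Mb, which stores oxygen in muscle, and Ngb, its relative in neurons, differed by 19.42. In the synaptophysin family Sypl2 averaged 371 ± 27.2 CPM in EOM and 735 ± 26.6 in TA, against 1.94 ± 0.609 in CN3 and 1.88 ± 0.130 in CN6, while Syp averaged 23.5 ± 9.42 CPM in EOM and 8.07 ± 1.53 in TA, against 988 ± 35.5 in CN3 and 997 ± 35.1 in CN6.

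A ribosomal protein pair switched with the rest. Rpl3l, the form of Rpl3 in heart and skeletal muscle, was at 435, 433, 392.04 and 423 CPM in EOM and 1001, 978, 928 and 927 CPM in TA, against 0.474, 0.343, 0.456 and 0.559 CPM in CN3 and 0.586, 0.595, 0.755 and 0.445 CPM in CN6. Rpl3, which all cells use, was at 195, 172, 180.0 and 185 CPM in EOM and 68.8, 62.7, 52.2 and 64.7 CPM in TA, against 383, 396, 433 and 437 CPM in CN3 and 381, 391, 372 and 368 CPM in CN6. The groups did not overlap for either gene. Rpl3l made up 81.6% in EOM and 96.8% in TA, against 0.214% in CN3 and 0.303% in CN6 of the pair by length, so EOM kept a larger part of Rpl3 than TA did.

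In 9 pairs a switch was not found, and in 8 of them it was the brain isoform that was not lower in all 4 contrasts. Lactate dehydrogenase separated the muscles: Ldha, the form of fast fibres, was at 1097, 1029, 899.7 and 1038 CPM in EOM and 6786, 6341, 6611 and 5740.1 CPM in TA, against 106, 103, 127 and 123 CPM in CN3 and 83.9, 90.5, 84.2 and 73.4 CPM in CN6. Ldhb, the form of oxidative cells, was at 756, 733, 672 and 749.5 CPM in EOM and 235, 248, 154 and 224 CPM in TA, against 526, 597, 566 and 543 CPM in CN3 and 764, 741, 778 and 739 CPM in CN6. EOM lay above CN3 and overlapped CN6 for Ldhb, TA lay below all of them, and Ldha made up 39.8% in EOM and 93.4% in TA, against 8.89% in CN3 and 4.95% in CN6. Mbnl2, a splicing factor taken as the brain isoform of Mbnl1, was higher in muscle at 0.81 ± 0.08. Cox7a2 and Synpo were also higher in muscle, at 1.52 ± 0.05 and 3.72 ± 0.07.

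Slc16a7, Actn1, Myl6 and Sgce had no shared direction. For Myl6 the average difference of 0.19 ± 0.05 reversed its sign under library totals. Ank1, the muscle isoform of the pair with Ank2, averaged 262 ± 12.96 CPM in EOM and 623 ± 48.8 in TA, against 193 ± 27.3 in CN3 and 257 ± 19.2 in CN6, so that EOM overlapped CN6. The switch of Dnm2 and Dnm1 rests on a small rise of Dnm2, 0.39 ± 0.06, which reversed under library totals. It was also lost under RLE factors, no filter and DESeq2, each leaving 39 pairs. Library totals left 37 pairs.

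**Figure D4:**
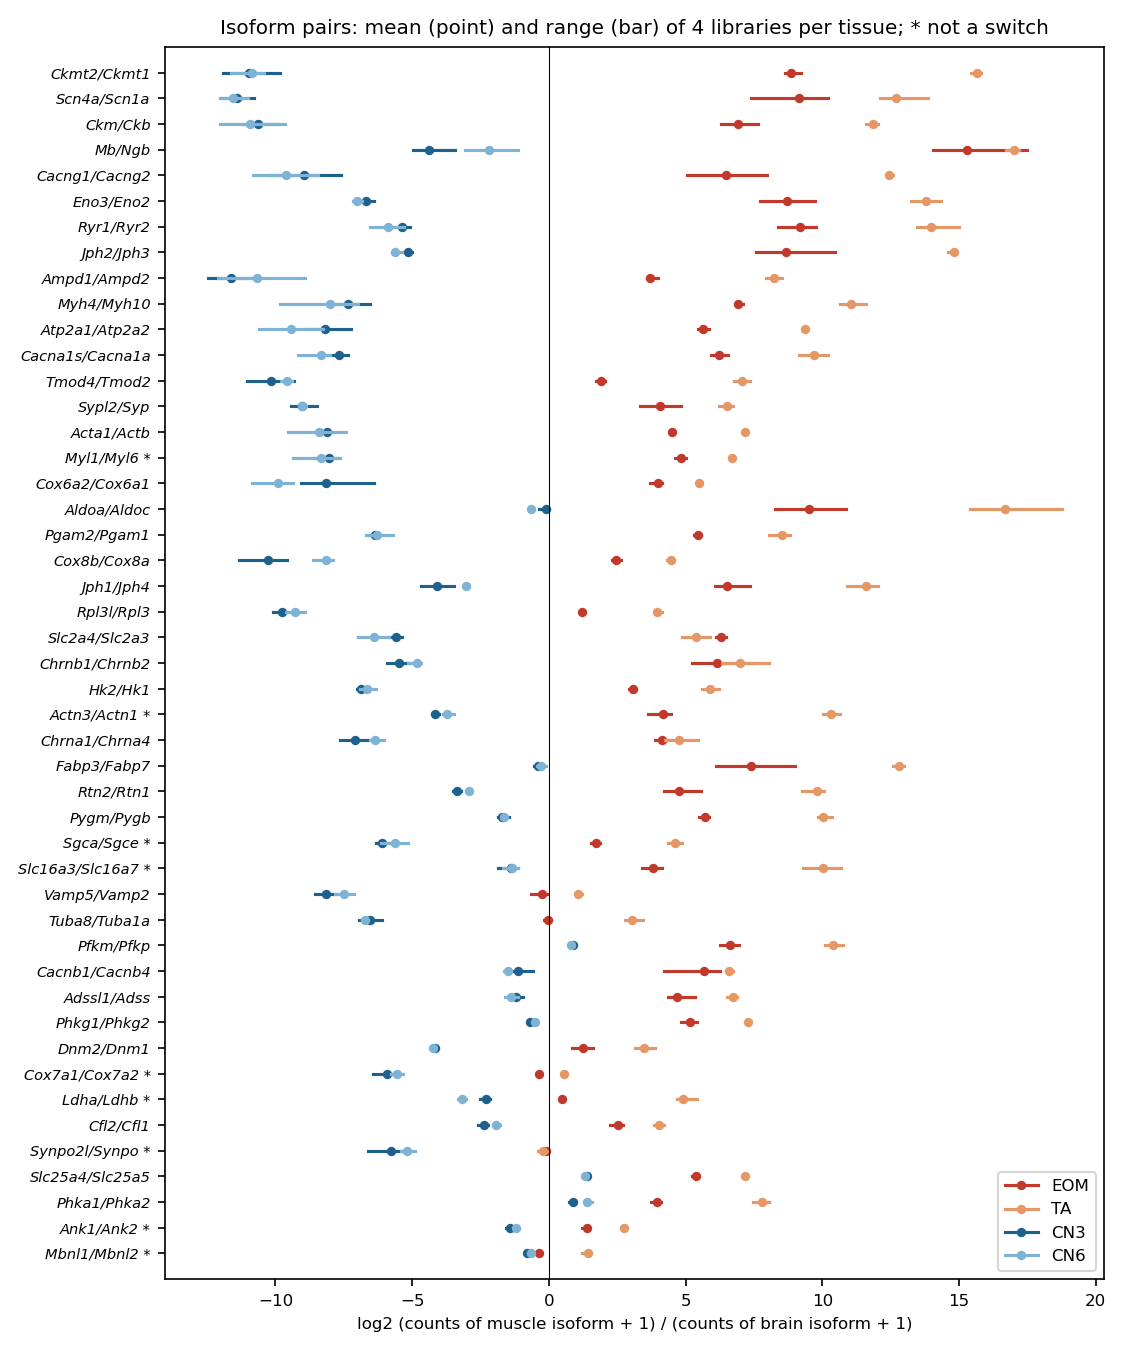
Log2 ratio of the counts (each + 1) of the muscle isoform over the brain isoform for the pairs shown, ordered by the difference between muscle and brainstem; points are the means and bars the ranges of 4 libraries in EOM, TA, CN3 and CN6, and an asterisk marks the 9 pairs without a switch. In every pair shown all muscle libraries lie right of all brainstem libraries, with TA right of EOM in most.

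Genes of connective tissue and fat were mostly higher in muscle. Fibroblast and tendon matrix genes were higher for 21 of 25 (adjusted p at most 0.021, median 4.01). Col3a1, a fibrillar collagen, was at 1258, 1183, 995 and 906 CPM in EOM and 167, 210.2, 123 and 128 CPM in TA, against 1.80, 3.16, 2.26 and 2.55 CPM in CN3 and 3.11, 4.80, 3.58 and 3.64 CPM in CN6. EOM held several times more than TA, and the difference of 2.79 ± 0.17 was called (edgeR, adjusted p = 1.8e-10). Decorin (Dcn), a proteoglycan of collagen fibrils, averaged 2516 ± 60.5 CPM in EOM and 405 ± 43.8 in TA, against 12.6 ± 1.13 in CN3 and 18.7 ± 3.40 in CN6. Sparc, a matrix protein that brain cells make too, was lower in muscle at −1.36 ± 0.09. Pdgfra, a receptor of fibroblasts and of oligodendrocyte precursors, averaged 141 ± 4.90 CPM in EOM and 17.7 ± 3.20 in TA, against 57.2 ± 6.40 in CN3 and 44.2 ± 3.04 in CN6, and lay above both nuclei in EOM and below both in TA.

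Endothelial genes went both ways. Of 16 genes 11 were higher, among them Cdh5 at 2.94 ± 0.07 and Pecam1 at 2.43 ± 0.07 (adjusted p at most 2.8e-04, background 29.4%, median 1.36). The count dropped to 5 under library totals. The 4 lower genes are known from the blood-brain barrier: the anion carrier Slco1a4 averaged 3.84 ± 0.812 CPM in EOM and 0.132 ± 0.117 in TA, against 66.1 ± 13.1 in CN3 and 86.7 ± 9.23 in CN6, Mfsd2a, which carries lipids, changed by −4.71 ± 0.14, Slc2a1, the glucose carrier of brain capillaries, by −2.75 ± 0.09, and the tight junction protein Cldn5 by −1.75 ± 0.21. Abcb1a, a drug pump also known from that barrier, was the remaining gene and had no shared direction. It averaged 49.6 ± 5.84 CPM in EOM and 42.2 ± 3.80 in TA, against 37.4 ± 3.61 in CN3 and 47.3 ± 0.652 in CN6.

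Smooth muscle and pericyte genes were higher for 10 of 11 (adjusted p at most 1.6e-04, median 3.13), led by desmin (Des) at 10.55 ± 0.09, which skeletal fibres make too. Acta2, the actin of smooth muscle, averaged 333 ± 65.9 CPM in EOM and 144 ± 6.95 in TA, against 17.4 ± 4.15 in CN3 and 13.8 ± 2.12 in CN6. Notch3 changed by 0.69 ± 0.09, a direction that library totals reversed. Vtn was lower at −1.10 ± 0.08. Fat cell genes were higher for 8 of 9 (adjusted p at most 1.9e-07, median 8.07, or 8.003 at the floor), with Adrb3 as the exception. Adipoq, the fat cell hormone adiponectin, was at 35.2, 31.6, 35.1 and 56.4 CPM in EOM and 12.7, 13.7, 5.64 and 10.7 CPM in TA, against 0, 0.0902, 0.0828 and 0.179 CPM in CN3 and 0, 0.0397, 0 and 0.202 CPM in CN6.

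Macrophage and microglia genes had no common direction: 3 of 16 were higher, 4 were lower and 9 were neither (adjusted p at most 7.2e-06, median −0.62). Both shares were below the backgrounds of 29.4% higher and 35.5% lower. The higher ones, Cd163 at 4.81 ± 0.08, Mrc1 at 4.01 ± 0.13 and Lyz2 at 3.84 ± 0.10, are known from tissue macrophages. Among the lower ones were Cx3cr1 at −6.51 ± 0.22, P2ry12 at −4.07 ± 0.18 and Trem2 at −3.59 ± 0.22, all abundant in microglia. C1qa, a complement subunit made by both, was at 68.9, 57.4, 63.0 and 59.2 CPM in EOM and 7.74, 10.4, 8.35 and 5.59 CPM in TA, against 22.3, 26.9, 25.2 and 23.8 CPM in CN3 and 22.9, 19.4, 21.7 and 23.0 CPM in CN6. EOM lay above the nuclei and TA below them, and 6 of the 16 genes showed this order (C1qa, C1qb, C1qc, Ptprc, Tyrobp and Cd68), beside 2.82% of all genes tested. For Ptprc the average direction reversed under library totals.

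Schwann cell genes were higher in all 4 contrasts for 4 of 10, beside a background of 29.4% (among them Prx, Egr2 and Dhh, adjusted p at most 3.3e-04). On average over both muscles and both nuclei 6 were called higher and 4 lower. Mal, which central myelin uses as well, was the only one lower in all 4 contrasts, at −3.98 ± 0.19. The list's summed level was 833 to 1021 CPM in EOM and 151 to 237 CPM in TA, against 476 to 759 CPM in CN3 and 523 to 565 CPM in CN6.

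Machinery that every cell uses also differed. Cytosolic ribosomal protein genes were higher for 24 of 27 tested (adjusted p at most 8.9e-05), with a median of 1.23. Rplp0, a stalk protein of the large subunit, averaged 686 ± 55.5 CPM in EOM and 1146 ± 36.9 in TA, against 120.1 ± 12.3 in CN3 and 119.6 ± 5.11 in CN6. Rpl3 was the lower one, and Rpl3l had the largest difference, 10.25 ± 0.08. Under library totals the count of higher genes dropped to 15, and Rps6, Rpl22l1 and Rpl37 were among those that reversed their direction. Reads of ribosomal protein genes can be shared with their many processed copies, so these values are uncertain.

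Proteasome genes were higher for 21 of 24 (adjusted p at most 0.0026, median 1.00), with Psmb7 of the core particle at 1.56 ± 0.04. Library totals left 13 higher and made 2 lower, and Psma5, Psmc1, Psmc4 and Psmd1 reversed. Psmc5, of the cap, had no shared direction.

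Genes known from both tissues were split, with 11 of 26 higher, 8 lower and 7 neither, beside backgrounds of 29.4% higher and 35.5% lower (median 0.73). Under library totals 8 were higher and 12 lower, so the balance depends on the scaling. Pvalb, the calcium buffer of fast fibres and of some interneurons, was at 3254, 3076, 3004 and 3342 CPM in EOM and 21031, 23874, 24580.5 and 22375 CPM in TA, against 69.6, 105, 61.9 and 77.5 CPM in CN3 and 165, 189, 187 and 184 CPM in CN6. CN6 held more of it than CN3, and both were far below the muscles. Nos1, the neuronal nitric oxide synthase that fast fibres carry at their membrane, was higher in muscle at 1.70 ± 0.09. Eef1a2, the elongation factor of adult muscle and neurons, changed by 1.05 ± 0.05. Ndrg4 was lower at −5.91 ± 0.08, with 222 ± 7.86 CPM in EOM and 3.56 ± 0.798 CPM in TA. Kcnc4, a potassium channel, lay above both nuclei in TA and below both in EOM.

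Level genes were 480 of 16670 (2.88%), with the 95% interval of the log2 fold change within 0.5 of 0 in each of the 4 contrasts. Psap, the precursor of lysosomal activators, was the most abundant, at 1430.1, 1309, 1219.7 and 1315 CPM in EOM and 1425, 1511, 1489.9 and 1426 CPM in TA, against 1354, 1384, 1516 and 1401 CPM in CN3 and 1517, 1429, 1489 and 1412 CPM in CN6. EOM replicate 3 was the lowest library, and all 4 groups overlapped. The other 11 named were the protease Ctsb, the helicase Ddx5, the adaptor Ywhae, Lynx1, the ubiquitin ligase Huwe1, Tmbim6, the splicing proteins Son and Prpf8, the coat protein Copa, Prrc2a and the chaperone Hspa4. Lynx1, a modulator of nicotinic receptors, averaged 525 ± 40.8 CPM in EOM and 455 ± 69.1 in TA, against 490.2 ± 24.3 in CN3 and 558 ± 30.1 in CN6. All 480 depend on the scaling, since none was level under all 4 scalings. Library totals moved Ctsb and Huwe1 to the other side of 0.

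The muscles lay on opposite sides of both nuclei for 777 genes. That choice fixes the difference between EOM and TA, so its values are given as a description. In 470 of these (2.82%) EOM was above both nuclei and TA below both, and in 307 (1.84%) the order was reversed. Under library totals these counts were 887 and 51, and 303 and 22 of the genes held under all 4 scalings. In the EOM-high set 282 genes averaged at least 1 CPM in all 4 groups, and 40 had no read in TA. In the TA-high set 301 genes averaged at least 1 CPM in all 4 groups.

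The strongest EOM-high genes by the smallest of their 4 differences were absent from TA and rare in the nuclei. Krt8, a keratin of simple epithelia, was at 4.73, 8.87, 13.2 and 8.94 CPM in EOM and 0 CPM in all 4 TA libraries, against 0.324, 0.0722, 0.104 and 0.0895 CPM in CN3 and 0.382, 0.892, 0.133 and 0.162 CPM in CN6. EOM exceeded TA at least 186-fold. Aqp5, a water channel of glands, averaged 11.1 ± 5.83 CPM in EOM and 0 in TA, against 0.184 ± 0.0849 in CN3 and 0.369 ± 0.109 in CN6. Cldn7 and Cldn23 of tight junctions, Pdzk1ip1 and Tmem8c had the same order. Tmem8c, which drives the fusion of myoblasts, averaged 4.67 ± 1.01 CPM in EOM. Among genes read in all 4 groups, which were picked after their values were seen, Serpinb1a, a protease inhibitor, averaged 130.0 ± 6.76 CPM in EOM and 4.93 ± 0.389 in TA, against 27.9 ± 8.99 in CN3 and 34.7 ± 4.88 in CN6.

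Smyd2, a methyltransferase that acts on chaperones and histones, led the TA-high genes. It was at 11.9, 11.3, 10.6 and 10.3 CPM in EOM and 629, 583, 654 and 575 CPM in TA, against 65.9, 83.7, 83.7 and 80.0 CPM in CN3 and 84.5, 72.1, 79.3 and 75.9 CPM in CN6. The nuclei overlapped each other between the muscles, and the EOM minus TA difference was −5.79 ± 0.10. Of its exon length 30% overlaps Gm37422 on the opposite strand. Cib2, which binds calcium and integrins, averaged 11.5 ± 0.367 CPM in EOM and 219 ± 11.9 in TA, against 31.0 ± 4.69 in CN3 and 31.1 ± 2.49 in CN6. Its neighbour Sh2d7 shares exon sequence with it on the opposite strand, and its average direction reversed under library totals. Amhr2, Col9a1 and Ppm1n completed this set, the last with no read in EOM. Col9a1, a collagen of cartilage, averaged 0.351 ± 0.300 CPM in EOM and 7.72 ± 1.64 CPM in TA.

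The nuclei lay on opposite sides of both muscles for only 9 genes, a choice that likewise fixes the difference between CN3 and CN6. In 4, CN3 was above both muscles and CN6 below both. Pax7 was at 4.41, 4.19, 3.39 and 4.77 CPM in EOM and 2.43, 2.13, 3.497 and 2.16 CPM in TA, against 8.51, 3.37, 24.6 and 12.3 CPM in CN3 and 0.153, 0.436, 0.0888 and 0.0405 CPM in CN6. Of the CN3 libraries, replicate 2 lay within the range of TA and the other 3 above all muscle libraries. Emx2, a homeobox factor, averaged 2.97 ± 0.129 CPM in EOM and 0.915 ± 0.311 in TA, against 5.90 ± 1.74 in CN3 and 0.0210 ± 0.0243 in CN6. Emx2os, its antisense partner with shared exon sequence, and Clec18a were the others. Under all 4 scalings 3 held, all but Clec18a.

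In 5 genes CN6 was above both muscles and CN3 below both, and under all 4 scalings only 1 of them held, Hoxd4. Sema3a, a secreted guidance cue, was at 8.61, 9.40, 16.2 and 10.7 CPM in EOM and 3.54, 3.63, 2.43 and 1.86 CPM in TA, against 0.824, 2.11, 0.290 and 0.492 CPM in CN3 and 27.9, 30.9, 33.5 and 33.7 CPM in CN6. The order CN6, EOM, TA, CN3 held in the means. Hoxd4, a hindbrain homeobox gene, averaged 0.801 ± 0.548 CPM in EOM and 0.943 ± 0.293 in TA, against 0.00902 ± 0.0180 in CN3 and 3.27 ± 0.659 in CN6. Mrps6, Them4 and Pdcl differed between the nuclei by less than 1 log2 unit. Mrps6, of the mitochondrial ribosome, averaged 18.8 ± 1.20 CPM in EOM and 18.8 ± 1.48 in TA, against 15.6 ± 1.66 in CN3 and 22.1 ± 1.87 in CN6.

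**Figure D5:**
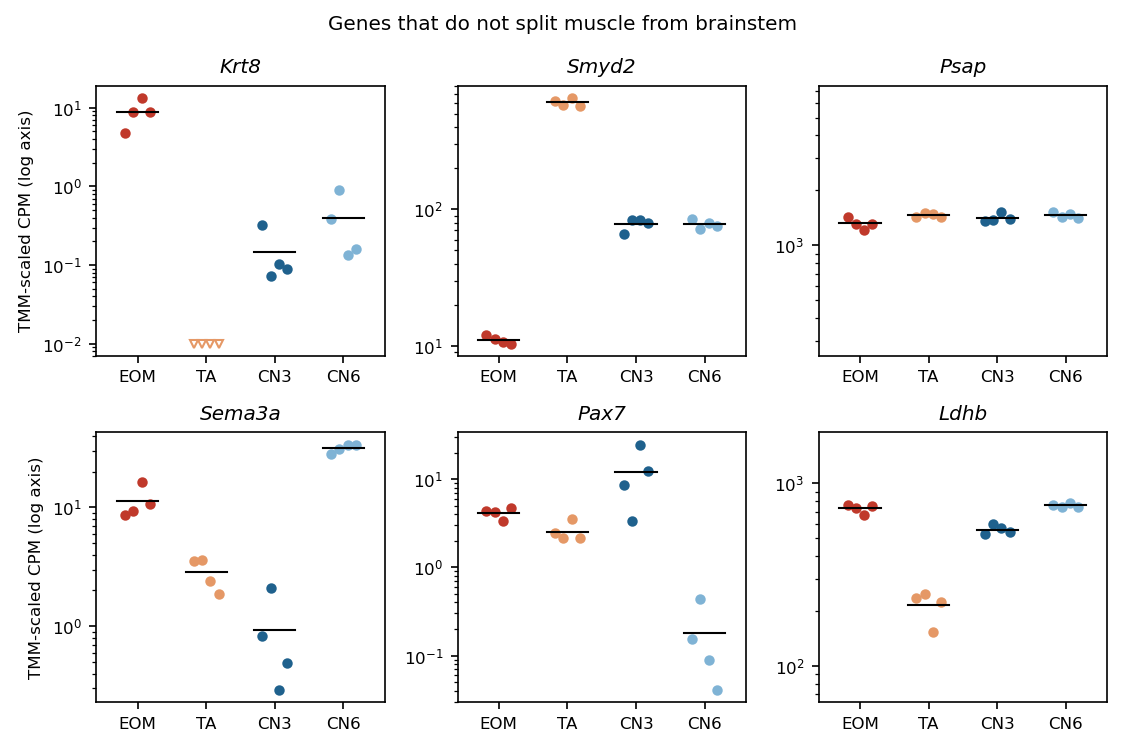
CPM (TMM-scaled, log axis) in each of the 16 libraries for 6 genes that do not split muscle from brainstem; points are libraries, black lines are means, and open triangles stand for libraries with no read. Krt8 and Smyd2 place EOM and TA on opposite sides of the nuclei, Psap is level, Sema3a and Pax7 place CN3 and CN6 on opposite sides of the muscles (Sema3a not under all 4 scalings), and Ldhb is low in TA alone.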

How the data were processed

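The authors deposited raw counts of reads for 24421 gene symbols, not normalized. Per the submitters' processing notes, reads went through Trimmomatic 0.33, FastQC, HISAT2 2.1.0 with mm10, featureCounts and edgeR. Annotation and strand setting are not given in the sources used here. No column was left unused for want of a label (0), and 27 symbols are dates.

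The 16 C57BL/6 libraries were fitted with edgeR 4.0.16 under R 4.3.3: filterByExpr by group, TMM, glmQLFit and glmQLFTest, with 4 group means and no covariate. Positions and exon lengths are from GENCODE on the same build (23358 symbols, 95.6%). Length-corrected shares use CPM per exon length. The fit was tried on simulated counts with a common profile for all groups and few changed genes. That run does not check the scaling.

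Isoform pairs, gene lists and alternatives were chosen with earlier results of these data known. Named are both members of pairs described, up to 8 members per list by absolute fold change plus exceptions, the 12 most abundant genes of each 16-fold class and of the level class, and up to 6 genes per opposing class. Named outside this rule, after their values were seen, were Ldb3, Myom2, Myh2, Sln, Gapdh, Cox4i1, Atp5b, Dtna, Vamp1, Dlg4, Mapt, Cnp, Ugt8a, Sox10, Glul, Notch3, Rps6, Psma5, Psmd1, Nos1, Eef1a2 and Serpinb1a. Alternatives were RLE and upper quartile factors, no filter, CPM of at least 1 in at least 4 libraries, DESeq2 1.42.0, limma 3.58.1 voom, thinning to the smallest total, a block for the replicate number, and each library left out in turn. Library totals and leaving out all CN3 libraries were added after seeing the data. Some genes are not reported here. The albino libraries were left out because the comparison is of pigmented mice.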

Additional observations from a re-analysis of the deposited data

Results flagged for a closer look

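Some values lay far from the other 3 libraries of their group. Of 111 groups of 4 examined, 3 held such a library, and chance gives about 1 in 20. The 111 groups did not cover every gene whose library values are given above, so 3 is not a full count. By the same rule Slc17a7 and Slc6a5 in CN3, Mog in CN6 and Adipoq in EOM also held such a library. Acta1 was at 6314 CPM in EOM replicate 3, below the 7304 to 7378 CPM of the other EOM libraries. Rn45s, the ribosomal RNA precursor, took 1.312% of the counts in EOM replicate 3, against 0.1302 to 0.2643% in the others, and 0.04242% in CN3 replicate 4, against 0.0145 to 0.01752%.

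Genes chosen for having the muscles on opposite sides of both nuclei differ between EOM and TA by that choice, so the differences are listed with no test. EOM was higher than TA at least 83.4-fold for Cldn23, 230.8-fold for Aqp5, 97.7-fold for Cldn7, 97.07-fold for Tmem8c, 185.9-fold for Krt8 and 198-fold for Pdzk1ip1. EOM minus TA was −5.79 for Smyd2, −6.84 for Amhr2, −4.23 for Sh2d7, −4.26 for Cib2 and −4.39 for Col9a1 on the log2 scale. TA was higher than EOM at least 25.98-fold for Ppm1n.

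Genes chosen for having the nuclei on opposite sides of both muscles are listed in the same way. CN3 minus CN6 was 6.03 for Pax7, 7.29 for Emx2os, 2.86 for Clec18a and 7.86 for Emx2, and −5.04 for Sema3a, −0.50 for Mrps6, −0.52 for Them4 and −0.66 for Pdcl on the log2 scale. For Hoxd4, with 2 reads in CN3 in all, the difference of mean CPM was −3.261.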

How the results depend on the processing

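The counts over all genes and of pairs stayed within 1.5 times their value under RLE and upper quartile factors, both filters, DESeq2, limma voom and thinning. Library totals without a factor gave 4527 genes called higher, 2906 higher in both muscles, 887 with EOM above and TA below the nuclei, and 51 with TA above and EOM below. They also reversed 20 named genes, to Ctsb −0.576, Huwe1 −0.549, Sh2d7 −0.399, Dnm2 −0.301, Myl6 −0.503, Lrp4 −0.106, Etv5 −0.368, Utrn −0.488, Notch3 −0.000212, Ptprc −0.0737, Celf2 −0.253, Ebf1 −0.322, Rpl22l1 −0.208, Rpl37 −0.181, Rps6 −0.234, Psma5 −0.140, Psmc1 −0.457, Psmc4 −0.173, Psmd1 −0.0141 and Kcnc4 −0.0122 on the log2 scale. By construction, that alternative drops factors that differ between the groups. Leaving out 1 library at a time kept these counts within 1.5 times, with the 9 genes placed by the nucleus between 6 and 12. Without CN3, 14120 genes were called, 5303 were higher and 6039 lower in both muscles, and 40 pairs switched. Whether libraries with the same replicate number came from the same animal was not tested. Of 24 same-numbered pairs, 2 had deviations correlated over 0.1 (−0.117 to 0.186). A library correlated best with its own number, among 4 candidates, in 18 of 48 comparisons. A replicate block gave 14773 called genes and changed the call of 1 of 588 named genes, which it added. It also made Cpt1a lower in all 4 contrasts. Depth limits the genes near 0, for which only bounds are given.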
